A study of Mus musculus with 5 samples.

Results

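Levels of 8 keratin genes were followed in sorted epithelial cells of the mouse trachea: Krt4 and Krt13, which are typical of oral and esophageal epithelium, Krt6a, Krt6b and Krt16, which are induced in activated epithelium, Krt1 and Krt10, which are typical of cornified skin, and Krt78. Members were all probe sets that the array annotation assigned to a single one of these genes, which gave 13 of the 45037 probe sets that are not controls, and 8 of 18193 genes. RNA was hybridised to an Affymetrix mouse 3' expression array, and the deposited value is 1 linear intensity, in arbitrary units, per probe set and array. The duct group held 3 arrays and the basal group 2, each from a pool of 10 to 15 C57BL/6 mice of both sexes, aged 8 to 12 weeks, with no transgene or treatment of the animals named. Duct cells of the submucosal glands came from the upper part of the trachea: the surface epithelium was stripped with pronase, and cells of the remaining tissue were sorted for a surface antigen. Basal cells came from the lower part: the surface epithelium was freed with dispase and sorted for the same antigen together with ITGA6. Enzyme, tracheal section and sort gate therefore changed together with the cell type and cannot be told apart from it.

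Keratins build the intermediate filaments of epithelial cells, and each filament needs a type I partner bound to a type II partner. Krt4 (type II) pairs with Krt13 (type I) in the suprabasal layers of wet stratified epithelia such as the mouth and esophagus, and in the mouse trachea both mark patches of stratified cells known as hillocks. Krt6a and Krt6b (type II) pair with Krt16 (type I) in wounded or rapidly growing epidermis and are made constantly in oral mucosa. Krt1 (type II) and Krt10 (type I) form the filaments of the suprabasal epidermis. Krt78 is a further type II gene.

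The oral-type and activated keratins were higher in duct than in basal cells, and the skin-type keratins were not. Krt4, Krt13, Krt6a, Krt6b and Krt16 rose by 3.61-fold to 30.3-fold in mean intensity. Krt78 had a log2 fold change of 1.03 and did not pass the test, and Krt1 and Krt10 had negative log2 fold changes, of -0.57 and -0.73, that did not pass it either. All 8 genes passed the filter on low values and were tested, and 5 were called higher and 0 lower at an adjusted p under 0.05 with limma. Krt6b, one of the 5, passed the filter only through its duct arrays. Over all 12536 tested genes 105 were called higher, or 0.838%, and 17 lower, or 0.136%, which is 0.973% in either direction. The median log2 fold change was 2.78 over the 8 genes and -0.12 over all tested genes. That second median was 0.08 with each array centred on its median and -0.05 with quantile normalization, and small fold changes are to be read against it. The number of these keratins called was 4 without duct replicate 1, 2 without duct replicate 2, and 0 without duct replicate 3 or either basal array, while every one of the 5 kept a positive fold change.

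The start regions of Krt13, which rose, and of Krt10 and Krt78, which were not called, are shown to let the contrast between these genes be read beside their sequence. RefSeq start regions, of 250 bases before to 50 after the start in build GRCm38.p6, were at hand for these 3 of the 8 genes. All are printed 5' to 3' along the gene, which lies on the minus strand, at chr11:100121517-100121816 for Krt13, chr11:99389315-99389614 for Krt10 and chr15:101954238-101954537 for Krt78. Capitals mark CACCC on either strand, the core of sites read by Klf factors, and ATAAANG on the strand of the gene close before the start.
Krt13: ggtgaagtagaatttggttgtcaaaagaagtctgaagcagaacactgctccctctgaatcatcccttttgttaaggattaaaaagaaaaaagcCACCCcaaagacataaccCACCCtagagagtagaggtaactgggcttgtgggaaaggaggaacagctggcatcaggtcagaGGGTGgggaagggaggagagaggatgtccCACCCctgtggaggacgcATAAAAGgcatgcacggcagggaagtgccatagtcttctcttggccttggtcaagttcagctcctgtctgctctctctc
Krt10: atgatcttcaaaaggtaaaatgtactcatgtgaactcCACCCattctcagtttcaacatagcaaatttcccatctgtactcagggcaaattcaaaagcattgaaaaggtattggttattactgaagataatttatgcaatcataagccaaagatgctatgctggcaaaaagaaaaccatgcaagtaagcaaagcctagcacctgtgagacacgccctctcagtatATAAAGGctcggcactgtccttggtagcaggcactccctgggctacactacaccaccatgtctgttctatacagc
Krt78: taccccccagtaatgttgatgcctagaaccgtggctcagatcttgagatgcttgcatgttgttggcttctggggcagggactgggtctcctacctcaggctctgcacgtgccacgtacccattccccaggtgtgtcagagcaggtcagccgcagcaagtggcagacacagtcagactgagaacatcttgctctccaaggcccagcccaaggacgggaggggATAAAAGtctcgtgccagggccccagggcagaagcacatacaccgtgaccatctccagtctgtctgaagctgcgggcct
ATAAANG, a motif picked after the sequences were read, began 29 bases before the start in Krt13 and Krt78 and 25 bases before it in Krt10, where it overlapped the TATAAA of a TATA box. In this place, 40 to 15 bases before the start, it was found in 1.66% of 32851 start regions of all genes. Krt13 held 4 CACCC matches, Krt10 held 1 and Krt78 held 0. At least 1 was present in 57.5% of all start regions and 3 or more in 9.35%. TGANTCA, a loose form of the AP-1 site that allows any middle base, was searched on both strands. It was present once in Krt13, 196 bases before the start, and in neither Krt10 nor Krt78, against 7.81% of all start regions. The Krt13 match reads tgaatca, and the AP-1 site has C or G as its middle base, so it is not an AP-1 core. GGGCGG, searched on both strands, was present in 35.7% of all start regions and in none of these 3. A second, downstream start of Krt13 in RefSeq held 1 CACCC and 2 TGANTCA matches, both of which read tgactca. A match shows letters and not that a factor was bound there.

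Krt13, the type I keratin of oral-type epithelium, measured 22097, 19151 and 25849 on the duct arrays, against 1430 and 2019 on the basal arrays. The groups lay far apart, and the lowest duct array was 9.49-fold above the highest basal array. The log2 fold change, duct minus basal on the scale of log2(intensity + 16), was 3.70 (SE 0.28, adjusted p = 0.00901), and mean intensity was 22366 ± 3357 (SD, n = 3) in duct and 1724 ± 416 (SD, n = 2) in basal cells. This value is of probe set 1422454_at, the most intense of 3 for the gene. The other Krt13 probe sets, 1441863_x_at and 1437344_x_at, are of the _x_at kind that may bind related transcripts. 1441863_x_at averaged 821 ± 123 (SD, n = 3) in duct and 159 ± 12.3 (SD, n = 2) in basal cells, a log2 fold change of 2.25 (adjusted p = 0.0623 in the fit by probe set). 1437344_x_at measured 892.8, 470.7 and 637.1 on the duct arrays, against 8.66 and 45.4 on the basal arrays. Both basal values lay under the brightest control probe set for a Bacillus transcript on their array, the measure of background used here, so the gene was at least 8.97-fold higher by this probe set. All 3 probe sets separated the groups with duct higher, but the size of the change ran from 2.25 to 4.09 on the log2 scale.

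Krt4, the type II partner of Krt13, measured 23982, 20939 and 25516 in duct cells, against 5761 and 7231 in basal cells. The lowest duct array was 2.90-fold above the highest basal array. The log2 fold change was 1.86 (SE 0.25, adjusted p = 0.0427), or 3.61-fold in mean intensity. A second probe set, 1438394_x_at, averaged 19298 ± 2086 (SD, n = 3) in duct and 5263 ± 54.8 (SD, n = 2) in basal cells, with a log2 fold change of 1.87. Both probe sets gave nearly the same size, but in the fit by probe set neither passed, at adjusted p of 0.0866 and 0.0826. The call of Krt4 lay close to the threshold: it was lost with any 1 of the 5 arrays left out (adjusted p 0.106 to 0.260), with a pseudocount of 1 (0.0530) and with no filter on low values (0.108).

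**Figure D1:**
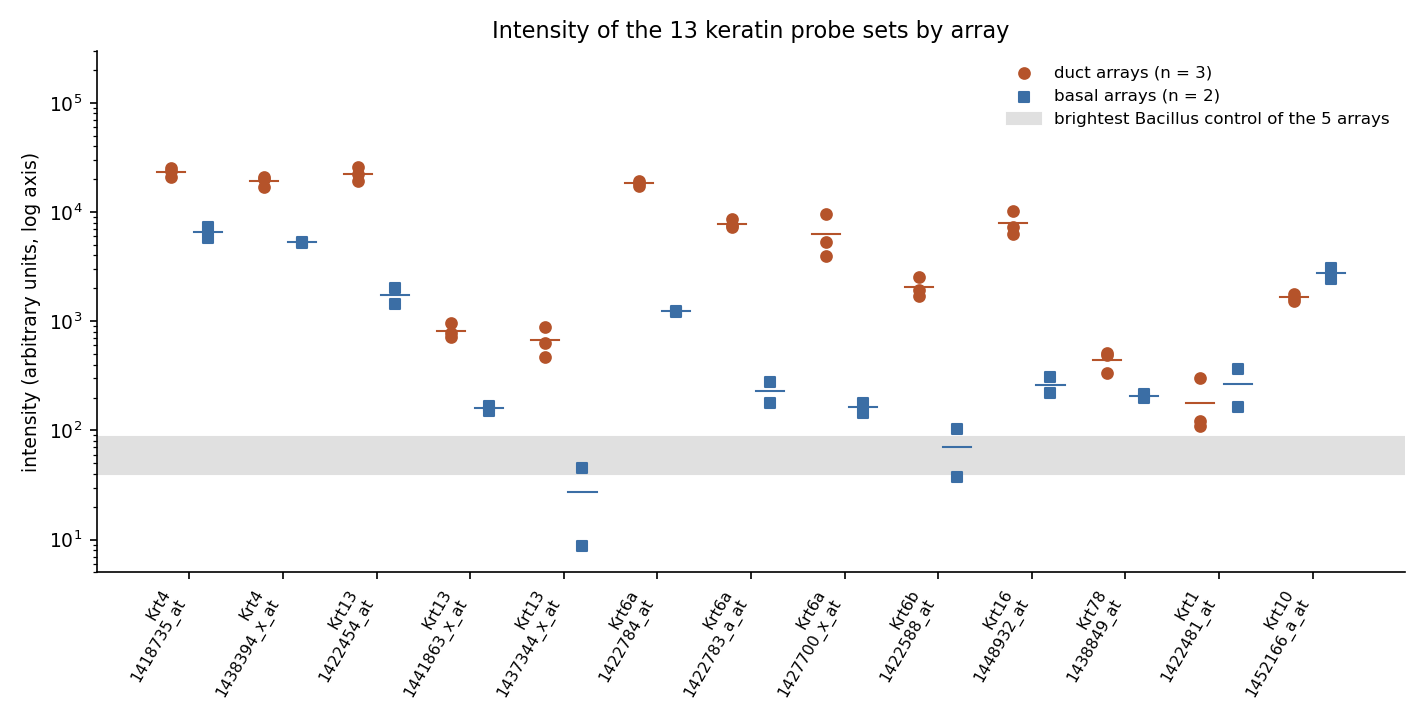
Intensity on a log axis of each of the 13 keratin probe sets, with the 3 duct arrays (circles) left of the 2 basal arrays (squares), group means as lines, and a grey band over the range of the brightest Bacillus control of the 5 arrays, 39.5 to 86.5. Duct arrays lie above basal arrays for every probe set of Krt4, Krt13, Krt6a, Krt6b, Krt16 and Krt78, overlap with them for Krt1 and lie below them for Krt10.

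By the most intense probe sets on all 5 arrays, the activated keratins had larger fold changes than the oral-type keratins. For Krt6a and Krt13 this order turned without basal replicate 2, at 3.90 and 3.94, and Krt13 probe set 1437344_x_at, at 4.09, exceeded the main Krt6a value. Krt16, the type I keratin of the group, measured 10141, 6303 and 7371 in duct cells, against 306 and 218 in basal cells. The lowest duct array was 20.6-fold above the highest basal array, and the log2 fold change was 4.83 (SE 0.31, adjusted p = 0.00595), or 30.3-fold in mean intensity. Krt6b, a type II partner of Krt16, measured 2528, 1718 and 1925 in duct cells, against 103 and 37.6 in basal cells. Its log2 fold change was 4.68 (SE 0.41, adjusted p = 0.0135). On basal replicate 2 the value lay under that array's brightest Bacillus control, 86.5, and on basal replicate 1 it lay above the brightest control, 59.7, so the basal level of Krt6b was close to background and its fold is less certain than its direction. The basal mean of Krt6b, 70.3, also lay under the filter on low values, an intensity of 83.9, so the gene was tested only because of its duct arrays. The log2 fold change of Krt6b ran from 4.01, with a pseudocount of 64, to 5.25, without basal replicate 1.

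Krt6a, the second type II keratin of the group, measured 18353, 17441 and 19352 in duct cells, against 1213 and 1247 in basal cells. Replicates lay within 1.11-fold of each other in duct and 1.03-fold in basal cells, the tightest spread of the 13 probe sets in duct cells, and the log2 fold change was 3.88 (SE 0.22, adjusted p = 0.00583), or 14.9-fold in mean intensity. Its other probe sets gave more: 1422783_a_at averaged 7817 ± 714 (SD, n = 3) in duct and 229 ± 70.2 (SD, n = 2) in basal cells, at 5.02 on the log2 scale. 1427700_x_at measured 9680, 3980 and 5330 on the duct arrays, against 178.7 and 145.8 on the basal arrays, at 5.06. All 3 passed in the fit by probe set, at adjusted p of 0.0112 to 0.0211, in which 6 of the 13 keratin probe sets were called higher and 0 lower, against 0.215% and 0.0185% of all 27022 tested probe sets. Krt6a and Krt6b are near-identical copies, and Krt16 resembles Krt14 and Krt17, so a probe set may take up signal of the related gene; how much was not tested. Without duct replicate 3 or either basal array the calls of Krt13, Krt6a, Krt6b and Krt16 were lost (adjusted p 0.0568 to 0.118), and without duct replicate 2 those of Krt13 (0.0518) and Krt6b (0.0651) were.

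Krt78 measured 489.9, 335.4 and 509.7 in duct cells, against 198.1 and 215.2 in basal cells. The groups did not overlap, which held with duct higher for 16.5% of all tested genes and with duct lower for 22.6%. The log2 fold change was 1.03 (SE 0.28, 95% interval 0.33 to 1.72, adjusted p = 0.149). Duct replicate 2 was the lowest of the duct arrays for this gene.

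The skin-type keratins did not rise. Krt10 measured 1548, 1647 and 1781 in duct cells, against 3088 and 2451 in basal cells. Every duct array thus lay below both basal arrays, as for 22.6% of all tested genes. Its log2 fold change was -0.73 (SE 0.24, 95% interval -1.33 to -0.12, adjusted p = 0.208). Krt1, its type II partner, measured 303.3, 108.9 and 122.9 in duct cells, against 367.6 and 164.6 in basal cells. Here the groups overlapped, because duct replicate 1 lay above basal replicate 2, and the log2 fold change was -0.57 (SE 0.54, 95% interval -1.91 to 0.76, adjusted p = 0.614). Without basal replicate 1 it was -0.03, and without basal replicate 2 it was -1.12. Krt2, a keratin of the upper epidermis, and Flg, the filaggrin gene, were at or below the brightest Bacillus control on all 5 arrays.

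**Figure D2:**
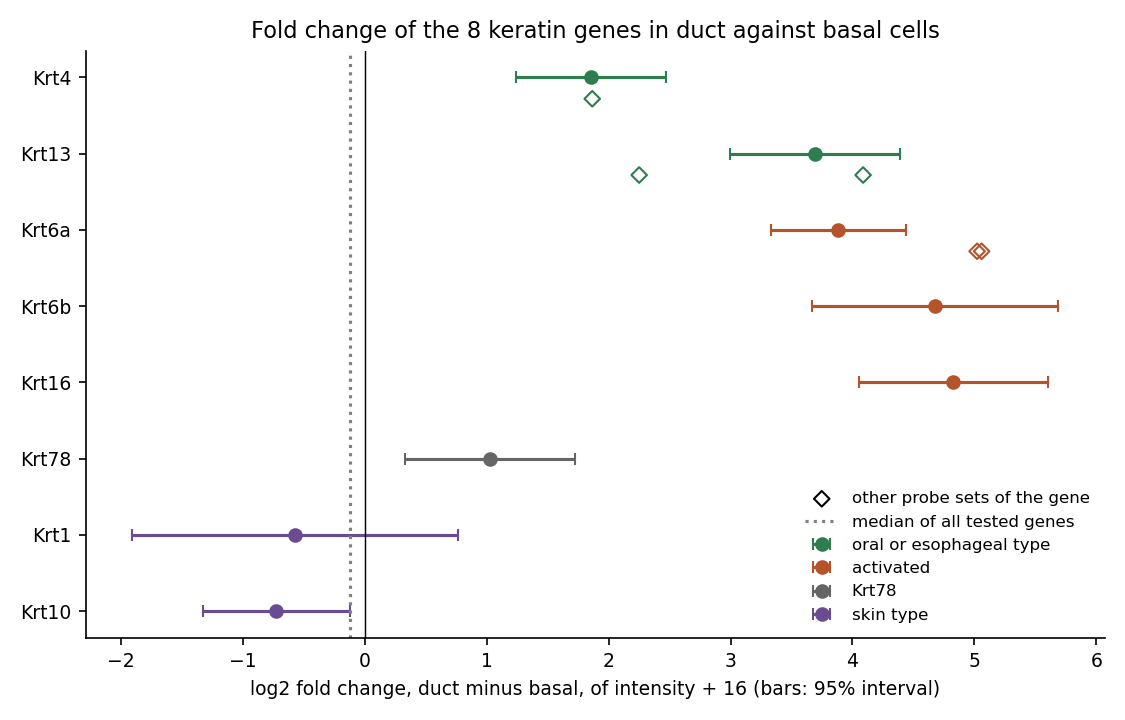
Log2 fold change, duct minus basal, of each keratin gene by its most intense probe set (filled circles, bars are 95% intervals of the limma fit) and by its other probe sets (open diamonds), with the median of all 12536 tested genes as a dotted line. The 5 oral-type and activated genes lie between 1.86 and 4.83, Krt78 at 1.03, and Krt1 and Krt10 at -0.57 and -0.73.

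Set side by side on the scale of log2(intensity + 16), each gene taken relative to its mean over the basal arrays, the 3 classes kept the same order on every duct array. The activated class stood at 4.69, 4.26 and 4.44 on the duct arrays, against 0.26 and -0.26 on the basal arrays. The oral-type class stood at 2.79, 2.59 and 2.95, against -0.20 and 0.20. The skin-type class stood at -0.27, -0.90 and -0.77, against 0.35 and -0.35. Relative to basal cells the activated class thus gained more than the oral-type class in duct cells, and the skin-type class was below its basal mean. These values are changes and not levels. Mean duct intensity was 23479 for Krt4 and 22366 for Krt13, against 18382 for Krt6a, 7938 for Krt16 and 2057 for Krt6b. The fold change of the oral-type class exceeded that of the skin-type class by 3.43 and that of the activated class exceeded it by 5.11, while oral-type minus activated was -1.69; the members were named with these classes in view, and no test was made of the differences. Within-array differences had SDs of 0.33 for oral-type minus skin-type, 0.13 for activated minus skin-type and 0.21 for oral-type minus activated over the duct arrays (n = 3), and 0.79, 0.13 and 0.66 over the basal arrays (n = 2). Without 1 basal array or the other, oral-type minus activated was -2.15 or -1.22. In bulk RNA a larger share of cells that make a keratin and more of its RNA per cell cannot be told apart.

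**Figure D3:**
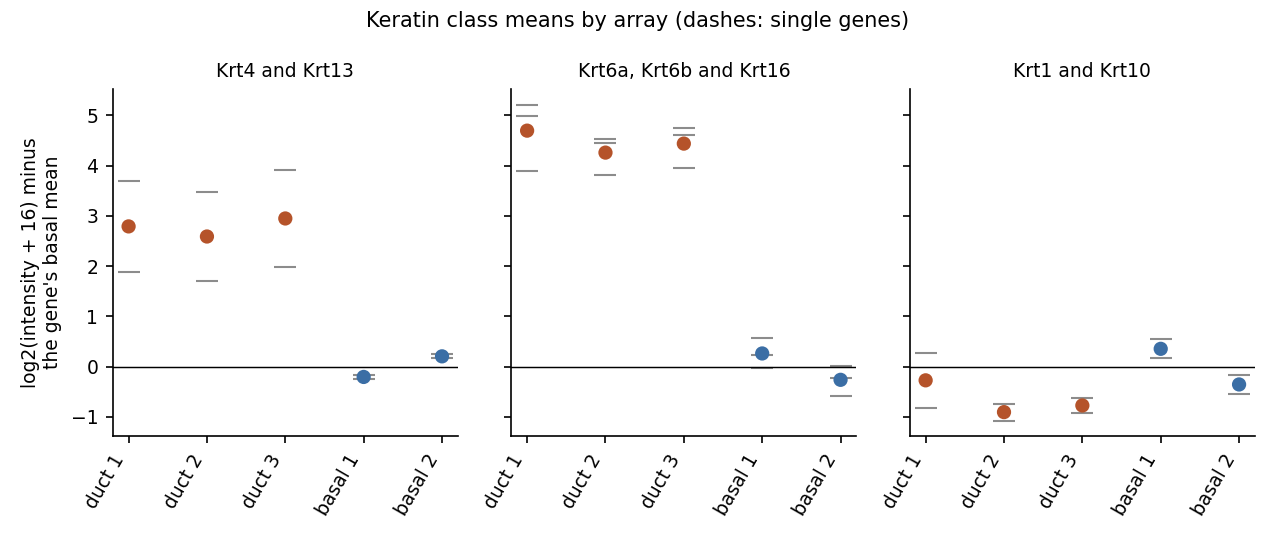
Mean of each keratin class on each array (dots, duct arrays left of basal arrays) on the scale of log2(intensity + 16), relative to each gene's basal mean, with single genes as dashes. Activated keratins lie at 4.26 to 4.69 on the duct arrays, oral-type keratins at 2.59 to 2.95 and skin-type keratins at -0.90 to -0.27.

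Filament partners were compared by their most intense probe sets. Relative to basal cells, Krt13 gained more than Krt4 by 1.80, 1.79 and 1.93 log2 units on the 3 duct arrays, against -0.08 and 0.08 on the basal arrays. The size of this gap depends on the probe set. Krt13 probe set 1441863_x_at had a log2 fold change of 2.25 and 1437344_x_at, at background in basal cells, one of 4.09, against 1.86 and 1.87 for those of Krt4. Krt16 gained more than Krt6a by 1.33, 0.72 and 0.79, against 0.25 and -0.25, but only for the most intense probe set of Krt6a: the other 2, at log2 fold changes of 5.02 and 5.06, exceeded Krt16, at 4.83, and with probe sets averaged Krt6a was at 4.65. Krt16 and Krt6b stayed close, with differences of 0.22, 0.08 and 0.15 on the duct arrays, against -0.35 and 0.35 on the basal arrays, a difference within the spread of the basal arrays. For Krt10 against Krt1 the differences were -1.10, 0.34 and 0.30, against -0.38 and 0.38, with no common direction.

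The other keratins of both gene clusters gave the setting. RefSeq placed 27 keratin genes in the cluster on chromosome 15 (type II genes, with the type I gene Krt18) and 27 in the cluster on chromosome 11 (type I), of which 24 each were on the array. Of the 40 keratin genes on the array outside the 8, 22 were tested, 4 rose and 0 fell, with a median log2 fold change of 0.16. Over all tested genes 0.838% were called higher and 0.136% lower, which is also the setting for the simple keratins below. Krt14, a keratin of basal layers, rose to 19816 ± 2251 (SD, n = 3) in duct cells, against 1430 ± 146 (SD, n = 2) in basal cells. Krt75, a keratin of hair follicles, nail and the filiform papillae of the tongue, measured 4990, 6908 and 5256 in duct cells, against 1017 and 538 in basal cells (log2 fold change 2.91, SE 0.35, adjusted p = 0.0330). Krt23, a type I keratin, averaged 10649 ± 1102 and 2311 ± 181 (2.19, adjusted p = 0.0277), and Krt17, a keratin of basal and stressed epithelium, was at 1.80. Krt32 and Krt80, chosen after their values were seen, were at 2.63 (adjusted p = 0.0557) and 1.99 (adjusted p = 0.0828). Among simple keratins, which fill the filaments of columnar cells, 1 of 5 tested rose, namely Krt23, while Krt8 and Krt18 were at 0.06 and 0.27, neither past the test.

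Of the 9 called keratins, 6 lay in 2 runs along the clusters, and Krt4, Krt13 and Krt23 had no called neighbour; adjacency was not tested. In the order of keratin genes on chromosome 15, Krt75, Krt6b and Krt6a followed each other and all rose, and Krt5, next in line, was at 0.60 (adjusted p = 0.256). Krt4 had Krt76, not tested because of its low values, and Krt79, at 0.46, on its sides, and Krt1 lay between Krt2 and Krt77, both left out as dim. On chromosome 11, Krt14, Krt16 and Krt17 followed each other and all rose. Krt13 lay between Krt36, left out as dim, and Krt15, at 0.14 (adjusted p = 0.790).

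**Figure D4:**
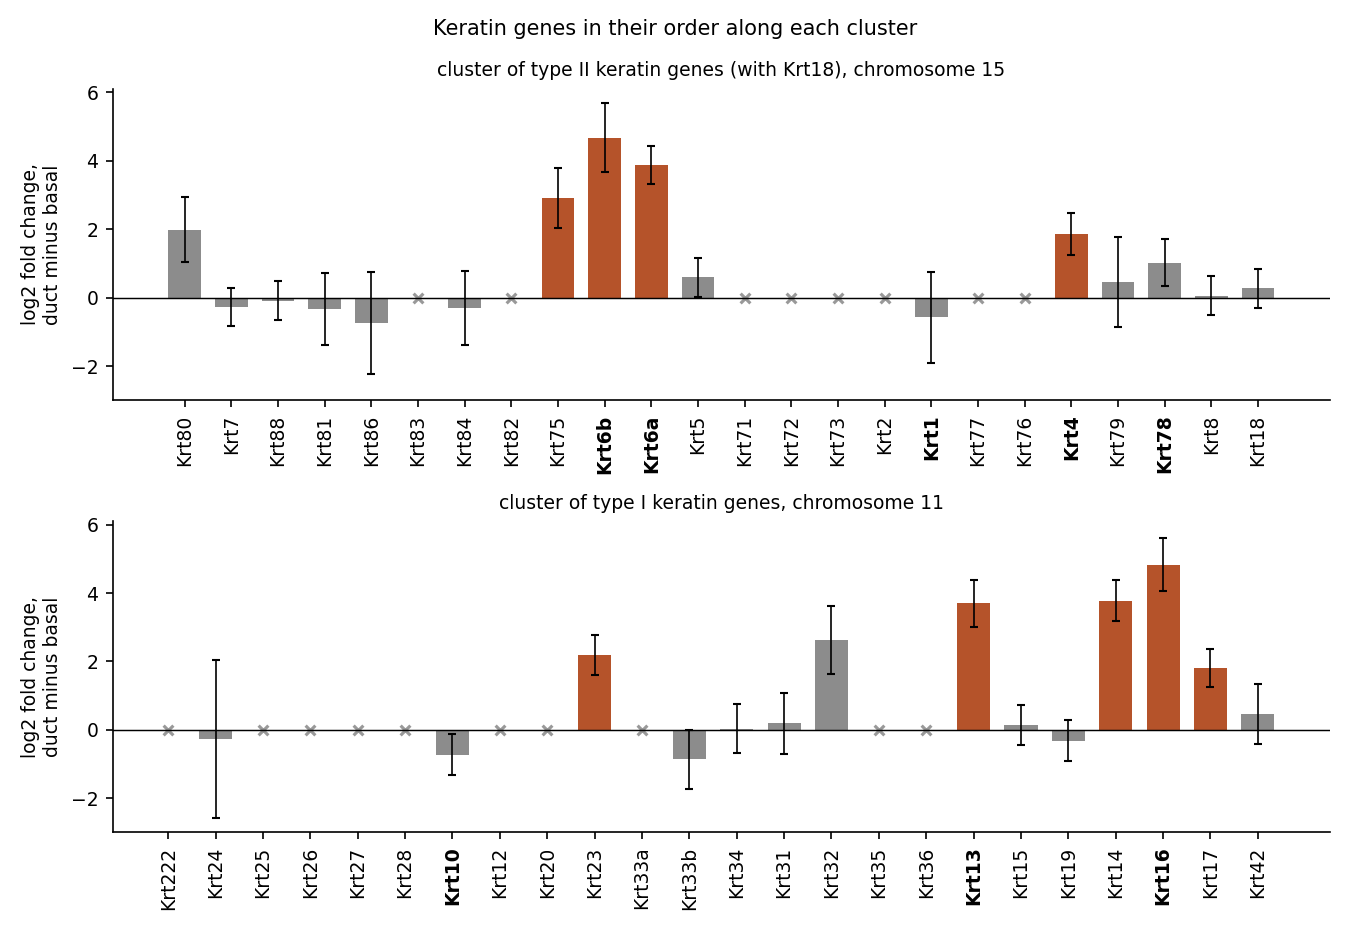
Log2 fold change, duct minus basal, of keratin genes on the array in their order along the clusters on chromosomes 15 and 11 (bars with 95% intervals of the limma fit; orange, called higher; grey, not called; crosses, not tested; bold, the 8 keratins described here). Called genes include the runs Krt75, Krt6b, Krt6a and Krt14, Krt16, Krt17.

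Genes closest to each keratin in pattern were ranked by the root mean square difference from it over the 5 arrays, on the log2 scale relative to the basal mean. Tested genes with only a clone, RIKEN or predicted-gene name were left out of the ranking. Krt13 was closest to Sprr1a, a precursor of the cornified envelope (0.10), then Krt14 (0.13) and Crabp1, a retinoic acid binding protein (0.21). Krt6a was closest to Krt14 (0.12), Bnc2, a zinc finger gene (0.17), and Sprr1a (0.19). Crabp1 and Bnc2 averaged 18.2 and 28.9 in basal cells, under the brightest Bacillus controls of the basal arrays, 59.7 and 86.5. Their distances thus rest on basal values at background, and both passed the filter through the duct arrays. Among the genes named below, Calm4, Igfbp4, Ada and Nuak1 also had basal means under the filter, at 51.9, 73.8, 69.3 and 68.5. Krt6b and Krt16 stood 0.25 apart: Krt6b was the closest of the ranked genes to Krt16, and for Krt6b only Asprv1, a protease of stratified epithelium, was closer (0.23). Calm4, a calmodulin-like gene, came next for Krt6b (0.26), and for Krt16 Calm4 and Igfbp4, an insulin-like growth factor binding protein, followed (0.36 and 0.38). Krt4 was nearest to Ada, adenosine deaminase (0.06), Smagp (0.09) and Map3k20 (0.10), and Krt78 to Dusp5, a phosphatase of ERK (0.06), Nuak1 (0.08) and Nr4a3, a nuclear receptor (0.09). Krt10 was nearest to Mtbp (0.05), Ppm1m (0.06) and Gstm6 (0.06), and Krt1 to Cdc23 (0.14), Ryk (0.20) and Ess2 (0.20). With a ranking drawn from 12536 tested genes over 5 arrays, small differences describe these arrays only.

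Genes listed for oral and esophageal epithelium were set beside the oral-type keratins. Of 26 tested genes of that list 13 rose and 0 fell, and all 26 had a positive log2 fold change. Over all tested genes 0.838% were called higher. The list was chosen with earlier results of these data known, so these counts are a description only. By fitted fold change the list was led by Krtdap, a secreted keratinocyte protein, Lgals7, a galectin, Sprr1b, an envelope precursor, and Tgm3. The first 3 were not above background on the basal arrays, and were at least 193-fold, at least 52.4-fold and at least 30.0-fold higher, bounds that give no order: Crct1, chosen after its values were seen, was at least 55.6-fold higher. Tgm3, an enzyme that cross-links the envelope, averaged 7025 ± 2269 (SD, n = 3) in duct and 124 ± 66.7 (SD, n = 2) in basal cells. On both basal arrays 6 of the 26 tested genes, all of them called, were at or under the brightest Bacillus control. They passed the filter through the duct arrays. The counts of called and of positive genes rest in part on these genes with no measured basal level, and no median is given. Of 22 listed genes of cornified skin 8 were tested, 2 rose and 0 fell, and 15 of the 21 on the array were at or under the brightest Bacillus control on both basal arrays. The 2 were Asprv1, a protease that processes filaggrin (4.54, adjusted p = 0.0318), and Calm4, a calmodulin-like protein (4.40, adjusted p = 0.0127). Calm4 averaged 51.9 in basal cells, under the filter on low values, and passed it through the duct arrays. Dsg1a and Dsg1b, desmosomal cadherins, were at background on both basal arrays and passed the filter through the duct arrays, so no median is given. Calml3 was at 0.78, and Casp14, Lor and Lce3b were at -0.40, -0.50 and -0.91, none past the test.

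Among 11 tested genes of keratinocyte activation, the state in which Krt6 and Krt16 are made, 1 rose and 0 fell. The share called higher over all tested genes was 0.838%, as for the lists that follow. Itga5, an integrin subunit of this list, was at background on both basal arrays and passed the filter through the duct arrays, so no median is given. Fosl1, a subunit of AP-1, rose to 5506 ± 938 (SD, n = 3) in duct cells, against 1293 ± 338 (SD, n = 2) in basal cells (log2 fold change 2.09, adjusted p = 0.0488). Of 23 tested regulators of keratin genes 2 rose and 0 fell, with a median log2 fold change of 0.26. Grhl3, a grainyhead factor of epidermal differentiation, was at 3.33 (SE 0.39, adjusted p = 0.0318), and Zfp750, a factor of the terminal differentiation of keratinocytes, at 2.14 (SE 0.28, adjusted p = 0.0403). Of 15 tested linkers of filaments to cell junctions 1 rose and 0 fell, with a median of 0.56: Dsc3, a desmosomal cadherin, averaged 7034 ± 1856 in duct and 1042 ± 31.2 in basal cells (2.70, adjusted p = 0.0309).

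Markers of cell types were set beside these values. Of 8 airway basal genes, Krt14 alone was called, by its _x_at probe set, and their summed intensity was 99247 to 114101 in duct and 82274 to 90444 in basal cells. Without Krt14 the sums overlapped, at 80632 to 91688 in duct and 80741 to 89117 in basal cells, and the list's median log2 fold change was -0.14. Krt5, Krt15, Aqp3 and Dlk2 were at 0.60, 0.14, -0.10 and -0.18. Trp63, Snai2 and Ngfr were lower on every duct array than on both basal arrays, as were 22.6% of all tested genes. Their log2 fold changes were -0.33, -0.69 and -1.76 and did not pass the test (adjusted p 0.0786 for Ngfr). The 4 club cell genes summed to 72390 to 88514 in duct and 80466 to 123574 in basal cells, and the 8 genes of gland acini to 43224 to 64125 in duct and 22894 to 49632 in basal cells. Of the 6 acinar genes tested 0 were called and 5 had a positive log2 fold change, with a median of 1.00. Dmbt1 (4.18, adjusted p = 0.0976) and Ltf (1.36, adjusted p = 0.272) were higher on every duct array than on both basal arrays, and Aqp5 (-0.11) was lower. The 5 thyroid genes on the array summed to 9406 to 21578 in duct cells, against 271 to 313 in basal cells, and most of the duct sum was Tg, the gene of thyroglobulin, which measured 8779, 16062 and 20119 in duct cells and was at least 197-fold higher than in basal cells. The listed hair follicle genes on the array, 10 keratins and Krtap3-1, summed to 659 to 1140 in duct and 922 to 1196 in basal cells, and 0 of 5 tested were called; this list does not hold Krt75, which rose, or Krt32. Sums were 13222 to 20284 in duct and 6030 to 17260 in basal cells for leukocyte genes, of which Lyz2 made up 12275 to 19517 in duct and 5374 to 16327 in basal cells, and at most 4247 in duct and 4714 in basal cells for fibroblast genes. Ciliated, cartilage, endothelial, myoepithelial and skeletal muscle lists each summed to at most 1042 in duct and 1878 in basal cells. In that order 4, 4, 1, 2 and 1 of their genes were tested, and 0 were called. With so few tested, this does not show that the genes were unchanged. Log2 fold changes were -2.722 for Myh11 (adjusted p = 0.0806), -1.597 for Ccdc39 (0.0963) and 1.499 for Acta2 (0.0751), each with no overlap of the groups. Comp, of the cartilage list, did not overlap either, at 0.61 (adjusted p = 0.475). The groups did not overlap for 16.5% of all tested genes with duct higher and for 22.6% with duct lower. The part of other cells in the keratin values was not tested. The median over probe sets was 92.3 on duct replicate 1 and 149 on each other duct array, against 153 and 147 on the basal arrays; the 5 called keratins were higher in duct cells without it too, at log2 fold changes of 1.84 to 4.64.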

How the data were processed

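The deposited intensities are linear; the authors scaled each array to a trimmed mean (2% off each end) of 500.0, as the values show. How probes were summarised, and with which software, is not given in the sources used here. Probe sets were named from the platform annotation, and 64 control probe sets were left out. The probe set with the highest mean log2(intensity + 16) stood for each gene, and those in the lowest 40% by that mean were left out, which left 12536 genes. Duct minus basal was fitted over all 5 arrays in limma 3.58.1 (lmFit, eBayes; R 4.3.3), 2-sided, with Benjamini-Hochberg adjustment over all genes, threshold 0.05, 3 residual and 2.79 prior degrees of freedom. Probe sets were fitted likewise. Of the called members of each list up to 4 are named, otherwise up to 2 of the most intense. With no detection calls, 27 Bacillus control probe sets measured background, and a fold is given as a lower bound where both basal arrays lie at or under it. Any pair of arrays held at most 1 value in common. The keratins and lists were chosen with earlier results of these data known. An antigen of both sorts is not reported here. Nothing beyond separate pools of mice distinguishes replicates. The number of arrays limits precision. Alternatives covered scaling, pseudocount, filter, probe set choice, variance model, replicate number as a block and each array left out. Figures used matplotlib 3.10.9.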

Additional observations from a re-analysis of the deposited data

How the results depend on the processing

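Over 16 to 19 alternatives per gene, in which 140 values of the 8 keratins were checked, 0 changed direction; 110 kept their side of the threshold and 30 lost the call, all of Krt4, Krt13, Krt6a, Krt6b and Krt16. Krt1 was not tested under the stricter filter (60% left out). Leaving out 1 array in turn gave 0 to 4 called keratins, against 5. The oral-type minus skin-type difference then ran from 2.87 to 3.98, activated minus skin-type from 5.02 to 5.21 and oral-type minus activated from -2.15 to -1.22. The activated minus skin-type difference was 5.28 with a pseudocount of 1, 4.73 with one of 64 and 5.37 with probe sets averaged per gene, with which oral-type minus activated was -2.12. Of all genes 122 were called, and 0 to 39 with 1 array left out (0 by limma without basal replicate 2, when 927 were higher and 889 lower before adjustment, at p under 0.05). The count was 338 with array medians centred (57 lower), 307 with a pseudocount of 64 (95 lower), 36 with no filter, 408 with the stricter filter (158 lower), 191 with the mean of probe sets (49 lower), 942 with an intensity trend and robust prior (377 lower) and 63 with probe sets as the unit. Choosing and filtering probe sets by mean linear intensity, an alternative added after seeing the data, gave 118. With the replicate block limma called 0 genes (650 higher and 958 lower before adjustment), and 0 of the 8 keratins (5 higher before adjustment); fold changes were 1.79 for Krt4, 3.59 for Krt13, 3.85 for Krt6a, 4.72 for Krt6b and 4.87 for Krt16. That fit leaves 1 residual degree of freedom. Samples with the same number did not deviate together (correlations across genes of -0.08 and -0.04). With 2 basal arrays the deviations of one mirror those of the other, so this check cannot settle whether arrays were paired. The labels give biological replicate numbers and do not say whether a duct and a basal array of the same number shared mice. Pairing is therefore undetermined, and the main fit took none. A lone basal array takes its variance from the duct group. The adjusted p of Krt4 ran from 7.62e-06 with an intensity trend to 0.318 with the block. The cause of these shifts was not tested beyond the fewer arrays or genes fitted. The depth of arrays is not a count; low signals near the Bacillus controls, as for Krt6b in basal cells, limit the size of a fold.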
